A study of Mus musculus with 3 samples.

Results

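The 31 genes described here are the mouse members of the tumour necrosis factor (TNF) ligand and receptor superfamilies whose symbols start with Tnfsf or Tnfrsf and a number and which have a protein-coding transcript. They are 11 ligand genes and 20 receptor genes, out of 55536 annotated genes, of which 22028 are protein-coding. Of 32 genes with such a symbol, 1, the antisense gene Tnfsf13os, was left out because it has no protein-coding transcript. RNA of the chromatin fraction was measured in 3 libraries of C57BL/6J bone marrow-derived macrophages, primary cells grown from marrow, after 120 min with lipid A at 100 ng/ml. Lipid A is the part of bacterial lipopolysaccharide that activates the receptor TLR4. The labels number the libraries as biological replicates 1, 2 and 3 of 1 group and give no genotype change, age or sex. No untreated or unfractionated library was part of the design, so the values are levels in stimulated cells and not responses to lipid A. Nothing in the labels says that the replicates came from separate animals, so their spread may be partly technical.

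Ligands of the TNF superfamily are mostly membrane proteins of immune cells that act as trimers and bind receptors on neighbouring cells. The receptors recruit TRAF adaptors, which lead to NF-kB and kinase signalling, or, where they carry a death domain, can also start cell death, while decoy receptors bind a ligand without passing on its signal. In macrophages the family is known for TNF itself, for ligands that costimulate T cells, and for the receptor encoded by Tnfrsf11a (RANK), which drives differentiation into osteoclasts. RNA of the chromatin fraction is enriched in transcripts still being made or processed.

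Levels are given in TPM, transcript units that divide counts by transcript length and scale each library to the same total, as the mean ± SD of the 3 libraries. Gene totals were 19751051, 20372850 and 21984526 expected counts in replicates 1, 2 and 3, of which the 31 genes held 14748, 19031 and 16718. All 9 macrophage markers had a mean of at least 1 TPM, against none of 5 B cell, 4 NK cell, 5 dendritic cell, 6 stromal, 4 endothelial and 4 neutrophil markers. Of 7 T cell markers 1 did, Cd4 at 3.47 ± 2.31 TPM, with the defining genes Cd3e, Cd3g and Trbc2 at a count of 0, and of 5 osteoclast markers 1 did, Acp5 at 9.69 ± 4.54 TPM. With the other quantifier (a further table deposited for the same reads) more markers passed 1 TPM: the T cell gene Cd3d (7.68), the endothelial gene Pecam1 (6.75), the osteoclast gene Ocstamp (3.96), the neutrophil gene Cxcr2 (3.91), the dendritic cell gene Zbtb46 (1.58) and the stromal gene Pdgfra (1.06). Replicate 2 stood apart: 11 abundant cytoplasmic RNAs summed to 2151 TPM there, against 663.1 and 687.2 TPM in replicates 1 and 3, and 4 mitochondrial RNAs to 2023 TPM, against 124 and 207. Protein-coding genes together held 179404, 237081 and 243233 TPM, so replicate 1 left less of the fixed total to them. In bulk RNA, fewer cells of a type and less RNA per cell cannot be told apart.

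Of the 31 genes, 16 had a mean of at least 1 TPM, or 51.6%, against 41.5% of all protein-coding genes. A further 12 lay below 1 TPM with at least 1 count, and 3 had a count of 0 in every library. The 16 genes were 7 of the 11 ligands and 9 of the 20 receptors. No one of the 16 was highest in replicate 1 on the TPM scale, where 8 were highest in replicate 2 and 8 in replicate 3. The same count over all genes was not made on this scale. Protein-coding genes together also held the least TPM in replicate 1 (179404, against 237081 and 243233). The plot of levels by library shows that a few genes of each class carried most of its RNA.

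**Figure D1:**
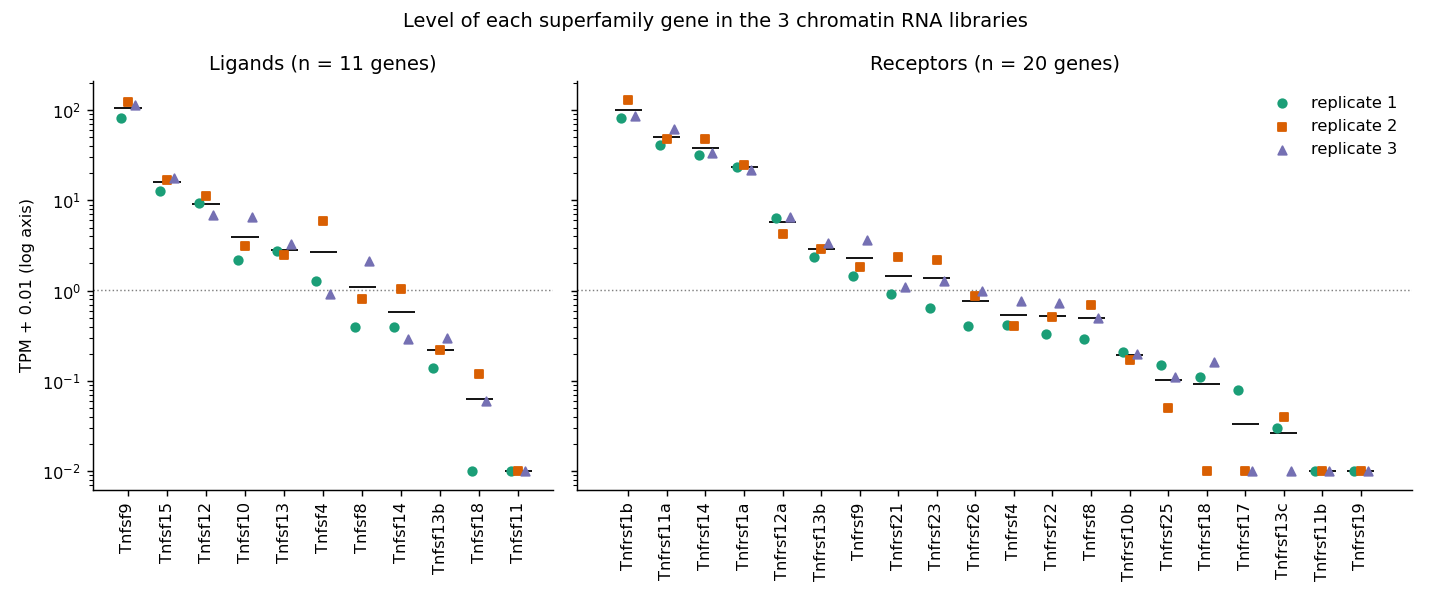
Level of each gene in TPM plus 0.01 on a log axis, with 11 ligand genes on the left and 20 receptor genes on the right; each symbol is 1 library, each black bar the mean of 3, and the dotted line marks 1 TPM. Tnfsf9 among the ligands and Tnfrsf1b among the receptors were highest, and Tnfsf11, Tnfrsf11b and Tnfrsf19 had a count of 0 in all 3 libraries.

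Among the ligands, one gene outweighed the others. Tnfsf9 encodes the ligand of CD137, a costimulatory receptor of T cells (chromosome 17, 57105325 to 57107757), and its RNA stood at 82.6, 124 and 113 TPM in replicates 1, 2 and 3, a mean of 107 ± 21.6 TPM. It held 74.5 ± 0.403% of the summed TPM of the 11 ligands. Tnfsf15, whose product costimulates T cells through the receptor encoded by Tnfrsf25 (chromosome 4, 63727084 to 63745113), followed at 12.6, 17.0 and 17.9 TPM (mean 15.8 ± 2.87). Both genes were lowest in replicate 1 in TPM, but in replicate 3 after scaling of counts by TMM (described below), and the highest Tnfsf15 library was well below the lowest Tnfsf9 library. Tnfsf12, which encodes the cytokine TWEAK (chromosome 11, 69686250 to 69695849), had 9.30, 11.3 and 6.88 TPM (mean 9.15 ± 2.19). Its levels lay below those of Tnfsf15 in every library, but with the other quantifier it had 19.7, 15.4 and 21.1 TPM against 12.7, 13.1 and 15.8 for Tnfsf15, the opposite order.

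The other ligands above 1 TPM lay close together, and several differed between libraries. Tnfsf10, which encodes the apoptosis-inducing ligand TRAIL, had 2.17, 3.14 and 6.57 TPM (mean 3.96 ± 2.31). Tnfsf13, which encodes the B cell survival factor APRIL, had 2.71, 2.48 and 3.27 TPM (mean 2.82 ± 0.406). Tnfsf10 was high in replicate 3 alone, whereas Tnfsf13 was similar in all 3 libraries. Tnfsf4, which encodes the ligand of the costimulatory receptor OX40, had 1.28, 5.88 and 0.91 TPM (mean 2.69 ± 2.77), and without replicate 2 its mean was 1.10 TPM. Tnfsf8, which encodes the ligand of CD30, had 0.39, 0.79 and 2.11 TPM (mean 1.10 ± 0.900), and without replicate 3 its mean was 0.59 TPM. A single library thus set the level of Tnfsf4 and placed Tnfsf8 above 1 TPM. The ligands below 1 TPM were Tnfsf14 (0.563 ± 0.399 TPM), which encodes LIGHT, Tnfsf13b (0.21 ± 0.08), which encodes the B cell survival factor BAFF, and Tnfsf18 (0.0533 ± 0.0551), which encodes the ligand of the receptor GITR. Tnfsf11, which encodes the osteoclast differentiation factor RANKL, had a count of 0 in all 3 libraries, where a count of 0 allows up to 0.152, 0.147 and 0.136 CPM, counts scaled to a common library total without regard to length (3 counts, counting error only).

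The receptors for TNF, RANKL and LIGHT led the receptor genes. Tnfrsf1b, which encodes the TNF receptor without a death domain (chromosome 4, 145213463 to 145246870), had 82.1, 131 and 85.7 TPM (mean 99.5 ± 27.2) and held 43.4 ± 5.27% of the receptors' summed TPM. Tnfrsf11a, which encodes RANK (chromosome 1, 105780718 to 105847981), had 40.9, 47.9 and 61.6 TPM (mean 50.1 ± 10.5). In TPM Tnfrsf1b was highest in replicate 2 and Tnfrsf11a in replicate 3, and Tnfrsf1b was the higher of the pair in every library. Tnfrsf14, which encodes HVEM, the receptor of LIGHT (chromosome 4, 154921933 to 154928563), had 31.9, 47.7 and 33.7 TPM (mean 37.8 ± 8.65). Tnfrsf1a, which encodes the TNF receptor with a death domain (chromosome 6, 125349362 to 125362484), had 23.7, 24.4 and 21.8 TPM (mean 23.3 ± 1.32), but 48.4, 39.6 and 31.9 CPM after TMM scaling, so its narrow spread in TPM did not hold on that scale. Each of these 4 receptors was above every receptor named next in every library.

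Receptors between 1 and 6 TPM were of several kinds. Tnfrsf12a, which encodes Fn14, the receptor of TWEAK, had 6.38, 4.24 and 6.58 TPM (mean 5.73 ± 1.30). Tnfrsf13b, which encodes TACI, a receptor of BAFF and APRIL, had 2.35, 2.88 and 3.39 TPM (mean 2.87 ± 0.520). Tnfrsf9, which encodes CD137, had 1.43, 1.81 and 3.65 TPM (mean 2.30 ± 1.19). Tnfrsf12a was lowest in replicate 2, and Tnfrsf9 was highest in replicate 3. Tnfrsf21, which encodes a death domain receptor, had 0.90, 2.35 and 1.10 TPM (mean 1.45 ± 0.786). Tnfrsf23, which encodes a decoy receptor of TRAIL in the mouse, had 0.63, 2.19 and 1.28 TPM (mean 1.37 ± 0.784), and 0.955 TPM without replicate 2. Both were highest in replicate 2.

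The 11 receptors below 1 TPM included several receptors of lymphocytes. Tnfrsf26 had 0.75 ± 0.31 TPM, Tnfrsf4 (OX40) 0.52 ± 0.199, Tnfrsf22, a further decoy receptor of TRAIL, 0.51 ± 0.195, and Tnfrsf8 (CD30) 0.487 ± 0.205. The TRAIL death receptor gene Tnfrsf10b had 0.183 ± 0.0208 TPM. Tnfrsf25, Tnfrsf18 (GITR), Tnfrsf17 (BCMA) and Tnfrsf13c (the BAFF receptor) had means of 0.0933, 0.0833, 0.0233 and 0.0167 TPM and no more than 3 counts in any library. Tnfrsf11b, which encodes the soluble RANKL decoy osteoprotegerin, and Tnfrsf19 had a count of 0 in all 3. By role, 2 of 4 death domain receptors and 1 of 3 decoy receptors had a mean of at least 1 TPM. The same held for 2 of 5 receptors that costimulate lymphocytes, 1 of 3 B cell survival receptors and 3 of 5 others. The share over all protein-coding genes was 41.5%. With the other quantifier a further receptor of each group passed 1 TPM: Tnfrsf10b (5.34), Tnfrsf22 (9.60), Tnfrsf4 (1.24), Tnfrsf13c (3.28) and Tnfrsf26 (2.93). Of the 30 pairs of neighbours in the order of mean levels over all 31 genes, 9 kept that order in every library, among them each step from Tnfrsf1b down to Tnfsf10. Of these 9, 6 kept it in every library with the other quantifier; Tnfsf12 was above Tnfsf15 in all 3, and Tnfrsf14 above Tnfrsf11a and Tnfsf10 above Tnfrsf12a in 2 of 3. The top pair did not: Tnfsf9 exceeded Tnfrsf1b in 2 of 3 libraries, with a difference of 0.11 ± 0.26 on the log2(TPM + 0.1) scale.

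Some genes of the family that lie side by side in the genome differed widely in level. Tnfrsf1b and Tnfrsf8 are 20266 bases apart on chromosome 4 with 0 coding genes between them, and had 99.5 and 0.487 TPM. Tnfsf9 and Tnfsf14 are 81734 bases apart with 1 coding gene between, and had 107 and 0.563 TPM. Tnfsf15 and Tnfsf8, 86194 bases apart, had 15.8 and 1.10 TPM, and Tnfsf4 and Tnfsf18, 76244 bases apart, had 2.69 and 0.0533 TPM. Other neighbours were closer in level: Tnfsf13 and Tnfsf12, the nearest pair at 465 bases, had 2.82 and 9.15 TPM, and Tnfrsf4 and Tnfrsf18, 9551 bases apart, had 0.52 and 0.0833 TPM. In the cluster of Tnfrsf26, Tnfrsf22 and Tnfrsf23 on chromosome 7, with gaps of 6083 and 16147 bases, all 3 were low in the main tables. With the other quantifier they had means of 2.93, 9.60 and 3.34 TPM.

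The sequence before the start is shown for 2 pairs with wide gaps in level: the neighbours Tnfrsf1b and Tnfrsf8, and the partners Tnfrsf11a and Tnfsf11, a receptor at 50.1 TPM and its ligand at a count of 0. Each is the 250 bases before the start in RefSeq (GRCm38.p6, which is mm10), written 5′ to 3′ on the gene's strand. Capitals mark matches to the interferon response core GAAANNGAA, the TATA box TATAAA or the NF-kB consensus, on either strand.
Tnfrsf1b, chr4:145246871-145247120, minus strand: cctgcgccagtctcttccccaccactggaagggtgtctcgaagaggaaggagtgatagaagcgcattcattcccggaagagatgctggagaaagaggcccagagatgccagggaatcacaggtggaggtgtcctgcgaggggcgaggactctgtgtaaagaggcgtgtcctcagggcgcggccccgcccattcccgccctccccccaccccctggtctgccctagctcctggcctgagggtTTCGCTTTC
Tnfrsf8, chr4:145315165-145315414, minus strand: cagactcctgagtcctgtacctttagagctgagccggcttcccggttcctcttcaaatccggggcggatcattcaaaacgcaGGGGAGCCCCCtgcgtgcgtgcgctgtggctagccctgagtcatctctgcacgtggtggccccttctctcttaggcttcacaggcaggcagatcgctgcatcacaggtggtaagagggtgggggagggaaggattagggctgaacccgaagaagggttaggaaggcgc
Tnfrsf11a, chr1:105780473-105780722, plus strand: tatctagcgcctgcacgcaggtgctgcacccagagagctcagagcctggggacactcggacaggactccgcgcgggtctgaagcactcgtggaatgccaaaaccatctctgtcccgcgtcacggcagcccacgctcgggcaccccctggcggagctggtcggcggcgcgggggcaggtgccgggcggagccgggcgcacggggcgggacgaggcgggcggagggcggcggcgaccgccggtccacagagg
Tnfsf11, chr14:78308044-78308293, minus strand: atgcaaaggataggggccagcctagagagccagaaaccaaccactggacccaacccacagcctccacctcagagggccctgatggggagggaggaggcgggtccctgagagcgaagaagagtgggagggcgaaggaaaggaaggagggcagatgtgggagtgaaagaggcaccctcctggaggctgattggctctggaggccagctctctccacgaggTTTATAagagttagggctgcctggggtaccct
Tnfrsf1b held the interferon response core on the opposite strand at positions -9 to -1 from the start, and Tnfrsf8 held a pair of overlapping NF-kB matches between -168 and -158. Tnfrsf11a held none of the 3 motifs, and Tnfsf11 held a TATA box on the opposite strand at -32 to -27. Guanine and cytosine made up 62.8%, 60%, 73.6% and 60.4% of these windows, with 12, 12, 31 and 4 CG dinucleotides in the same order, against a median of 6 over all 32851 promoter entries. The expressed receptor gene Tnfrsf11a therefore had the most CG dinucleotides of the 4, but Tnfrsf1b and Tnfrsf8 had equal numbers at very different levels.

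Promoters were present in the table for 24 of the 31 genes, in 28 entries reaching from 250 bases before the start to 50 after it, and 12 of the 24 genes held none of the 3 motifs. The NF-kB consensus occurred in 3 of 28 entries (10.7%), against 8.46% of all entries, the TATA box in 4 of 28 (14.3%) against 13.6%, and the interferon response core in 6 of 28 (21.4%) against 8.56%. The genes with the interferon core were Tnfrsf1b, Tnfrsf14, Tnfsf8, Tnfrsf4, Tnfsf13b and Tnfrsf17, of which 3 were above and 3 below 1 TPM. The genes with the NF-kB consensus were Tnfrsf9, Tnfrsf8 and Tnfrsf25, with means of 2.30, 0.487 and 0.0933 TPM. The interferon core was thus found on both sides of 1 TPM. The NF-kB consensus was found in no gene with an entry and a mean above 2.30 TPM. With 3 such genes, and no entry for Tnfsf9, no relation to level can be drawn. Some matches lay in annotated exons of their own gene. The stretches around those of Tnfrsf14 and Tnfsf13b were wholly exonic (99 of 99 and 61 of 61 bases). For Tnfrsf9 and Tnfsf8, 81 of 88 and 18 of 99 bases were exonic, and the other stretches held no exonic base. Tnfrsf9, Tnfsf13b and Tnfrsf25 each had a further entry without a motif. Tnfrsf10b, Tnfrsf11b, Tnfrsf22, Tnfrsf26, Tnfsf12, Tnfsf4 and Tnfsf9 had no entry.

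The median ligand exceeded the median receptor in the main quantification, but the order depended on how the RNA was quantified. On the log2(TPM + 0.1) scale the ligand median was 0.99 ± 0.47 and the receptor median -0.41 ± 0.50, beside -1.50 ± 0.13 for all protein-coding genes. In TPM the medians were 1.28, 2.48 and 2.11 for ligands and 0.405, 0.775 and 0.87 for receptors in replicates 1, 2 and 3. The ligand median was therefore the higher in each library, with log2 differences of 1.45, 1.57 and 1.20 and a mean of 1.41 ± 0.19, or 2.65-fold. With the other quantifier the receptor median was the higher in each library, with ligand minus receptor at -0.89, -0.75 and -1.36 (mean -0.999 ± 0.32). Adding 15 further family genes with other symbols, named below, also turned the difference, to -0.31 ± 0.39. The means of the members differed by 0.59 ± 0.23 with ligands higher, less than the medians did. No test of ligands against receptors was made, since genes of a class are not replicates. Summed over members, receptors held 192, 267 and 222 TPM and ligands 112, 166 and 152 TPM. These sums cover 20 receptors but only 11 ligands, so their order does not compare levels per gene.

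The family genes whose symbols do not follow the rule held both of its highest levels. Among 7 ligands of this kind only Tnf passed 1 TPM, at 173, 256 and 187 TPM (mean 206 ± 44.5, chromosome 17, 35199381 to 35202007), above every one of the 31 genes. Ltb, a subunit of lymphotoxin, followed at 0.877 ± 0.344 TPM, and Fasl and Cd40lg, ligands of activated T cells, had a count of 0 in all 3 libraries. Among 8 receptors 4 passed 1 TPM, led by Cd40, the receptor through which T cells activate macrophages, at 251, 327 and 349 TPM (mean 309 ± 51.5), and by the lymphotoxin receptor gene Ltbr at 10.5 ± 3.22. Cd40 had 1007 TPM and Ltbr 32.3 with the other quantifier, and Eda, the ectodysplasin gene, passed 1 TPM as the other ligand beside Tnf, at 1.41. The lowest were Edar and Eda2r at 0.00333 TPM each, receptors of the skin appendage factor ectodysplasin. Of 17 genes for proteins that act at the receptors, 16 had a mean of at least 1 TPM, with a median of 24.6 ± 4.41 TPM. Tnfaip3, which encodes the inhibitor A20, was highest at 461 ± 100.1 TPM, followed by Cflar, an inhibitor of caspase-8 activation, at 244 ± 63.9 (367 with the other quantifier). Fadd, the adaptor that links death domains to caspase-8, was lowest at 0.79 ± 0.39 TPM, below Tradd, the adaptor of the death domain TNF receptor, at 6.07 ± 1.26 (12.6 with the other quantifier).

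Known partners mostly differed in level, but genes that are not partners were not compared in this way. Of 19 ligand and receptor pairs, the ligand was higher in all 3 libraries in 13, the receptor in 3, and 3 were mixed or both at 0. Several pairs share a gene, and some lie near the floor. Tnfsf13b had 4, 4 and 11 counts, and its receptors Tnfrsf13c and Tnfrsf17 no more than 1 in any library. The widest gaps with the ligand higher were Tnfsf9 over Tnfrsf9, by 5.57 ± 0.58 on the log2(TPM + 0.1) scale, and Tnfsf15 at 15.8 TPM over Tnfrsf25, which had 3, 1 and 3 counts. The receptor was higher for RANK and RANKL (Tnfrsf11a at 50.1 TPM, Tnfsf11 at a count of 0), for HVEM and LIGHT (Tnfsf14 minus Tnfrsf14 at -5.97 ± 0.53) and for TACI and BAFF (Tnfsf13b minus Tnfrsf13b at -3.28 ± 0.13). Tnf exceeded Tnfrsf1a by 3.12 ± 0.26 and Tnfrsf1b by 1.06 ± 0.08. In 6 pairs both genes had a mean of at least 1 TPM, and of these Tnfsf13 and Tnfrsf13b, which encode APRIL and TACI, were nearest, with a difference of -0.02 ± 0.20.

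**Figure D2:**
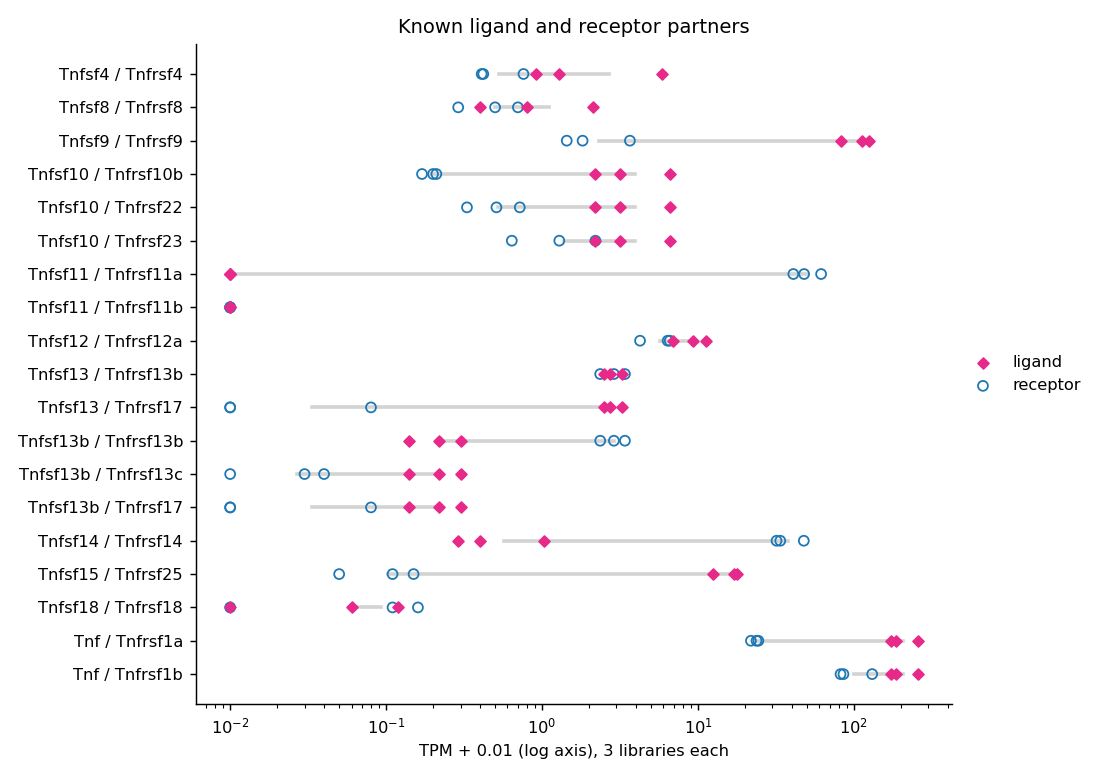
Levels of 19 ligand and receptor pairs in TPM plus 0.01 on a log axis; filled diamonds are the ligand and open circles the receptor in each of 3 libraries, and grey lines join their means. The RANK, HVEM and TACI pairs (Tnfsf11 with Tnfrsf11a, Tnfsf14 with Tnfrsf14, Tnfsf13b with Tnfrsf13b) are those with every receptor point to the right of the ligand points.

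With the other quantifier 14 of the 19 pairs were on the same side. Tnfsf9 over Tnfrsf9, Tnfsf15 over Tnfrsf25, both Tnf pairs and the 3 pairs with the receptor higher were among them. The exceptions were Tnfsf10 with Tnfrsf22 and Tnfsf13b with Tnfrsf13c, where the receptor became the higher in all 3 libraries, Tnfsf13 with Tnfrsf13b, which moved from mixed to receptor higher, and Tnfsf4 with Tnfrsf4 and Tnfsf8 with Tnfrsf8, which became mixed.

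Within the family the quantifications differed mainly for receptors, and the same shares were not computed over all genes. Count totals were higher with the other quantifier in each library, at 30556921, 35481440 and 38826171, against 19919358, 20430415 and 22023921 in replicates 1, 2 and 3. Of 28 genes with a TPM above 0, 14 had means within 1.5-fold of each other, 8 of 10 ligands and 6 of 18 receptors. The other quantifier was higher by more than 1.5-fold for 12 receptors and 2 ligands. It placed 20 genes at or above 1 TPM, 6 ligands and 14 receptors, of which 15 were among the 16 above. Among the genes above 1 TPM, it gave 72.6 TPM for Tnfrsf14, 42.9 for Tnfrsf1a, 18.7 for Tnfsf12 and 6.77 for Tnfsf10. Tnfrsf22 had 8.04, 6.90 and 13.9 TPM with it, against 0.32, 0.50 and 0.71, and almost all of this was isoform Tnfrsf22-204 (8.95 against 0.09 TPM in the mean). Tnfrsf10b had 3.37, 4.72 and 7.94 TPM against 0.20, 0.16 and 0.19, and Tnfrsf13c 1.95, 2.78 and 5.12 against 0.02, 0.03 and 0. The libraries of the quantifications did not overlap for these 3 receptors, nor for Tnfrsf14, Tnfrsf1a, Tnfrsf13b, Tnfrsf23, Tnfrsf26 and Tnfsf12. The values do not settle which level is nearer the true one.

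**Figure D3:**
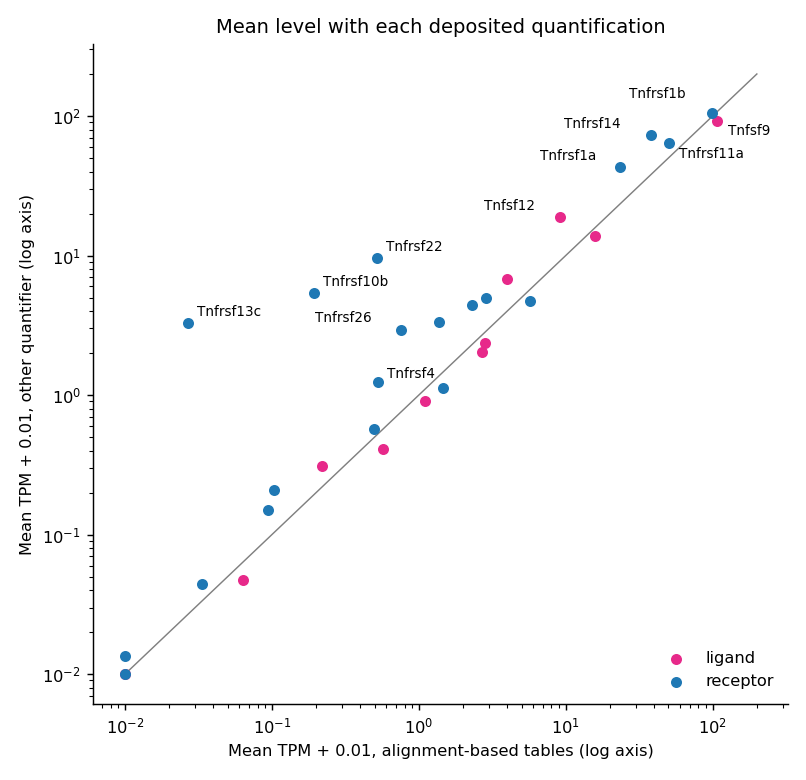
Mean TPM plus 0.01 of each of 31 genes in the alignment-based tables (horizontal) and with the other quantifier (vertical), both on log axes, with a line of equality; points are means of 3 libraries. Tnfrsf22, Tnfrsf10b and Tnfrsf13c lie far above the line, while Tnfsf9 and Tnfrsf1b lie near it.

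Sequence shared between genes was measured as the share of a gene's 31-base words, over all its annotated transcripts, that occur in another gene on the same strand. It was 38.3% for Tnfrsf22 and 26.7% for Tnfrsf23, which have 1033 words in common. It was 10.8% for Tnfrsf10b, spread over 2027 genes, but 0.526% for Tnfrsf13c. Tnfsf12 and Tnfsf13 shared 47.4% and 58.4% with Tnfsfm13, a gene model that reads through both and had 2.73, 4.82 and 3.08 TPM. Counts of these genes can therefore be split between models, and their levels are uncertain. On the opposite strand Tnfsf9 overlaps Gm11110 over 192 of its 1290 exonic bases, and Tnfsf13 overlaps Tnfsf13os over 221 of 1637. Gm11110 and Tnfsf13os had 0.597 and 2.83 TPM. As the strandedness of the counting is not given, reads over these shared bases cannot be told apart from those of the 2 ligands. Tnfrsf1a and Tnfrsf12a, 2 of the genes above 1 TPM, shared no 31-base word with another gene on either strand. With the other quantifier they had 42.9 and 4.73 TPM, against 23.3 and 5.73 TPM in the main tables. The part of shared sequence in the differences between quantifications was not tested.

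Most genes of the family varied between libraries by more than counting error, as did most genes. Counts scaled by TMM, a method that removes differences in library composition, were compared between the 3 libraries with a chi-square test over all 14200 genes whose mean count reached 10. Of 21 family genes that passed this filter 16 had a Benjamini-Hochberg adjusted p below 0.05, against 68.8% of all genes tested. Those 16 were 6 of 8 ligands and 10 of 13 receptors, and the median variation beyond counting error was 27.5% over the family and 20.1% over all genes. Without replicate 1, 2 or 3 the count was 12, 11 or 10 of 21, beside 47.5%, 54.7% and 47.7% of all genes tested. The test gives variation among these libraries and not a difference between conditions.

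The most variable genes were of both classes. Tnfsf4 had 2.73, 9.60 and 1.33 TMM-scaled CPM in replicates 1, 2 and 3, a variation beyond counting error of 96.7%. Tnfsf8 had 1.84, 2.89 and 6.85 (67.6%), and Tnfsf14 had 0.835, 1.66 and 0.415 (61.6%). Tnfsf4 and Tnfsf14 were thus highest in replicate 2 and Tnfsf8 in replicate 3. Tnfrsf21 had 3.90, 7.69 and 2.86 (51.8%), Tnfsf10 13.6, 15.3 and 28.5 (42.1%), and Tnfrsf23 1.17, 2.64 and 1.66 (37.8%). These 6 were 4 ligands and 2 receptors, and the next 4 in order were all receptors, with a variation of 32.9% to 29.5%. At the other end Tnfsf15 had 51.7, 54.2 and 50.6 TMM-scaled CPM, with an adjusted p of 0.281, and Tnfrsf11a had 136, 126 and 135, called with an adjusted p of 0.0179 but a variation of 3.61%. Tnfrsf26, Tnfrsf9, Tnfsf13 and Tnfrsf10b did not pass the test either, with mean counts of 12 to 74.8. A p above the threshold does not show that they were constant.

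**Figure D4:**
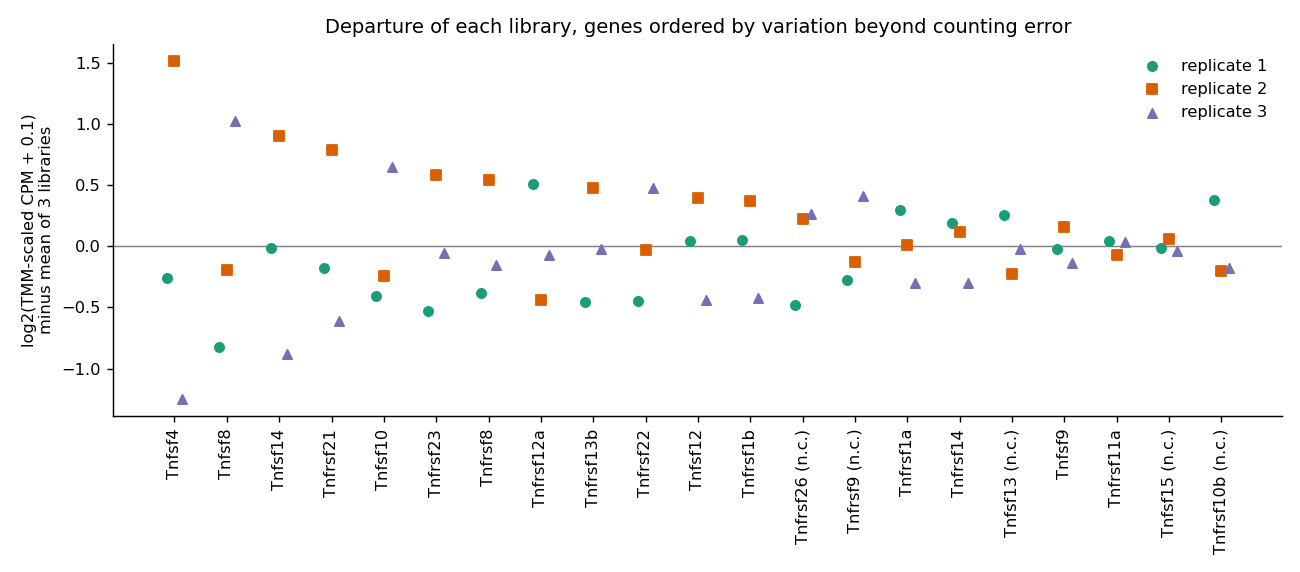
Departure of each library from the gene's mean on the log2 scale of TMM-scaled CPM plus 0.1, for the 21 genes whose mean count reached 10, ordered by variation beyond counting error; symbols are libraries and n.c. marks genes not called by the chi-square test. Tnfsf4, Tnfsf14 and Tnfrsf21 are high in replicate 2, Tnfsf8 and Tnfsf10 in replicate 3, and Tnfsf15 and Tnfrsf11a lie near 0.

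After TMM scaling 6 of the 21 genes were highest in replicate 1, 10 in replicate 2 and 5 in replicate 3, against 27.7%, 35.2% and 37.2% of all genes tested. Replicate 2 exceeded the mean of the others by a median of 0.17 on the log2 scale over the family, 0.07 over all genes, 1.504 over cytoplasmic RNAs and 3.73 over mitochondrial RNAs. Over the 9 macrophage markers that median was 0.86, with 6 highest in replicate 2 and 0 in replicate 3. Tnfsf4, Tnfsf14, Tnfrsf21 and Tnfrsf23 were high in this library, and the part of its cytoplasmic RNA in their values was not tested. The scale also mattered for the most abundant receptors: Tnfrsf1b had 385, 479 and 278 TMM-scaled CPM, so that replicate 3 was lowest, whereas in TPM replicate 1 was lowest.

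For isoforms, the level of annotated transcripts with a retained intron was compared with that of protein-coding transcripts of the same gene. The log2 ratio of their summed TPM, each plus 0.1, was tested against 0 with limma over 5598 genes whose mean count reached 50, and 4 family genes, all receptors, could be tested. Tnfrsf1a had ratios of -2.43, -2.87 and -3.38 (mean -2.89 ± 0.31, SE, adjusted p = 0.00164) and Tnfrsf21 -2.55, -2.70 and -1.17 (mean -2.14 ± 0.39, SE, adjusted p = 0.00698), so 2 of 4 had less of the retained-intron kind, against 29.8% of all genes tested. None had more of it, against 19.4% of all genes. Without replicate 1 the Tnfrsf21 ratio was -1.94 and was not called (adjusted p = 0.0522), and with a pseudocount of 1 it was -0.86 (adjusted p = 0.0212). With the other quantifier the limma ratios were -1.17 for Tnfrsf1a (adjusted p = 0.00631) and -1.84 for Tnfrsf21 (adjusted p = 0.014). There 3 of 6 family genes tested were called with less retained intron, beside 2145 of 7058 genes. A further 2 of the 6 were called with more, beside 2500 of 7058 genes.

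Those 2 were Tnfrsf11a and Tnfrsf12a, whose retained-intron isoforms were at or above the coding level in TPM. The coding isoform Tnfrsf11a-201 had 18.4, 22.3 and 26.3 TPM, and the retained-intron isoforms Tnfrsf11a-202 and Tnfrsf11a-203 had 8.76, 9.80 and 13.2 and 13.7, 15.8 and 22.1 TPM. Together the retained-intron isoforms held 55.4% of the gene's TPM. They are annotated at 611 and 1041 nt, against 5027 nt for Tnfrsf11a-201. As TPM divides by length, this share of TPM is not a share of reads. The log2 ratio was 0.30 ± 0.26 (SE, limma adjusted p = 0.376), against 0.70 (adjusted p = 0.0405) with the other quantifier. All 3 isoforms of RANK were lowest in replicate 1 and highest in replicate 3 in TPM in the main tables. For Tnfrsf12a retained-intron isoforms held 66.5%, with ratios of 2.02, 0.59 and 0.33 (mean 0.98 ± 0.40, SE, adjusted p = 0.0896), against 1.03 (adjusted p = 0.0394) with the other quantifier. For Tnfrsf1a the quantifications split the gene differently: an isoform marked for nonsense-mediated decay, Tnfrsf1a-202, had 0, 0.61 and 0 TPM in the main tables and 18.7, 14.5 and 20.8 TPM with the other quantifier. The coding isoform Tnfrsf1a-201 differed less, at 16.8, 18.6 and 16.7 against 15.8, 13.5 and 14.8 TPM. Tnfrsf1b was carried almost wholly by 1 coding isoform, Tnfrsf1b-201, with 99.4% of its TPM, and with the other quantifier 86.2%.

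**Figure D5:**
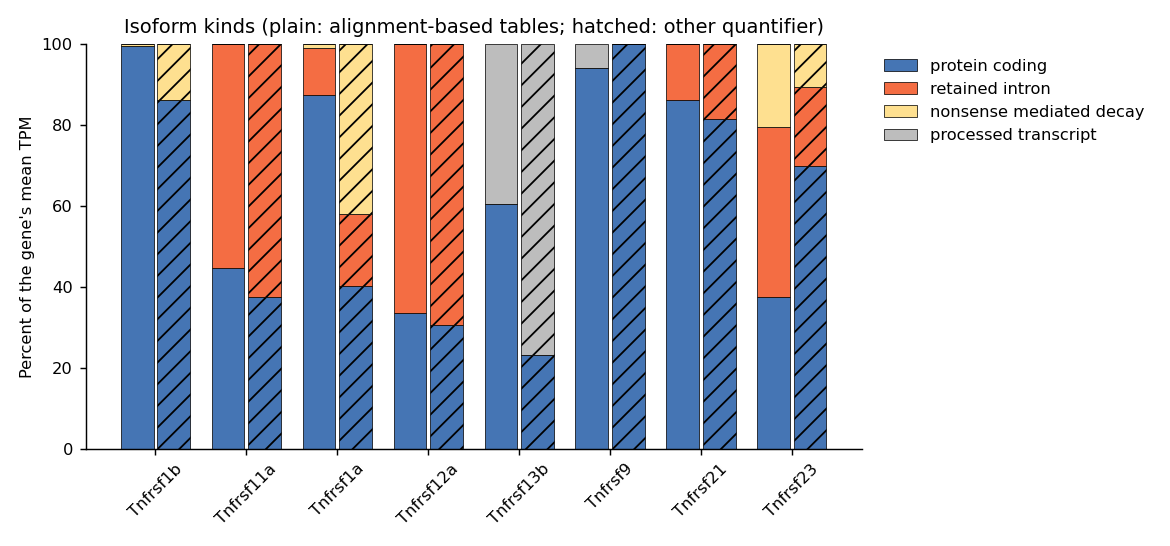
Share of each gene's mean TPM (vertical, in percent) held by protein-coding, retained-intron, nonsense-mediated decay and processed transcripts, for the 8 genes above 1 TPM with more than 1 kind, in the alignment-based tables (plain bars) and with the other quantifier (hatched bars); bars are means of 3 libraries. Retained-intron isoforms hold the larger share of Tnfrsf11a and Tnfrsf12a in both, while the decay isoform of Tnfrsf1a holds 0.872% in one and 42.0% in the other.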

How the data were processed

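For each of 3 libraries the authors deposited gene and transcript tables of expected counts, read totals shared among features, and TPM, made from transcriptome alignments to mm10 with GENCODE M21, per the deposited notes. A further deposited table, called the other quantifier, gives estimated counts and TPM per transcript, summed here per gene. The sources used here do not name the aligner, the quantifiers' versions, the trimming or the strandedness. Gene models came from GENCODE M21 and matched 55536 of 81881 entries; the rest, 0.845%, 0.282% and 0.179% of counts, were left out.

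The genes, lists and tests were chosen with earlier results of these data known. Levels used log2(TPM + 0.1). Expected counts were rounded to whole numbers, TMM factors came from edgeR 4.0.16, the chi-square test had 2 degrees of freedom, and limma 3.58.1 tested isoform ratios, both with Benjamini-Hochberg adjustment at 0.05 in R 4.3.3. DESeq2 1.42.0 size factors were an alternative. Genes with a mean of at least 1 TPM are given by library and others by mean; of the variable genes the 6 with the largest variation are named, and from companion lists up to 2 of the highest and lowest. On simulated counts with counting error only, the variation test recovered 55% of genes changed 1.5-fold and 99% changed 3-fold, among 14200, with 9 false calls. On ratios simulated with normal errors, the isoform test recovered 93% of shifts of 2, among 5598, with 9 false calls. These settings match what each test assumes, so the false calls do not measure error in the real libraries, which varied beyond counting error. Sequences are from RefSeq. Libraries started from 1 µg, 250 ng and 500 ng of RNA in replicates 1, 2 and 3 and kept fragments from 250 to 400 nt, according to the labels.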

Additional observations from a re-analysis of the deposited data

How the results depend on the processing

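The ligand minus receptor difference of medians, 1.41 on the log2 scale, reversed with the other quantifier (-0.999) and with family genes outside the symbol rule (-0.31). It was 0.80 with a pseudocount of 1, 0.90 with CPM without division by length, 0.59 for means over members and 0.65 for members of at least 0.1 TPM. Under the same alternatives that moved it by more than 1 SD, the ligand level of 0.99 became 1.54, 1.67 and 1.54 (pseudocount 1, no length division, at least 0.1 TPM) and -0.72 with the added genes. The receptor level of -0.41 became 0.74, 0.77, 0.30 and 0.89 (pseudocount 1, no length division, mean over members, at least 0.1 TPM) and 1.69 with the other quantifier. Leaving out each library kept the difference between 1.32 and 1.51.

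At a threshold of 5 TPM, 8 genes passed instead of 16. Leaving out 1 library gave 10 to 12 family genes that varied instead of 16 (47.5% to 54.7% of all genes instead of 68.8%), 1 to 2 genes with a lower isoform ratio instead of 2, and over all genes 936 to 1824 lower instead of 1668 and 630 to 951 higher instead of 1084. With the other quantifier 2500 of 7058 genes had a higher ratio, with 2 of 6 family genes tested instead of 0 of 4. A lower ratio was called there for 2145 genes and 3 of the 6 family genes, instead of 2 of 4. At a mean count of at least 10, 3 of 6 family genes tested were lower, beside 1823 of 6724 genes. At a mean count of at least 200, 1 of 2 family genes tested was lower, beside 1319 of 3945 genes; Tnfrsf21 was not tested there. No paired analysis was possible because there was 1 group. Depth limits the genes with a few counts, for which a level of 0 and a low level cannot be told apart.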
